A study of Mus musculus with 3 samples.

Results

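The ancient mammalian retroviral repeats described here are the repeat names that begin with LTR followed by a digit, or with MamGyp, chosen by name alone. The rule found 108 of the 18484 names listed in each library. Of these, 95 had at least 1 read, 34 had 20 or more reads over the 3 libraries and are given singly, 61 had 1 to 19 reads and are pooled, and 13 had none. At the limit of 20 reads, LTR33B lay just inside with 20 reads, and LTR82B and LTR91A lay just outside with 19 reads each.

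RNA that came down with an antibody from mouse hippocampus was sequenced (RNA immunoprecipitation sequencing) and counted per repeat name. All mice were 9 months old and on a C57BL/6 background. PS19 mice carry a mutant human tau transgene under the mouse prion protein promoter and develop tau pathology, and WT mice lack it. There was 1 library each for the ZBP1 pull-down from PS19, the pull-down of Z-form nucleic acid (ZNA) from PS19 and the ZNA pull-down from WT. ZBP1 is an innate immune sensor of nucleic acid in the left-handed Z form. None of the 3 libraries is a ZBP1 pull-down from WT, an input or an isotype control, so no level can be read as enrichment by an antibody. The labels do not say whether mice were pooled. With 1 library per group, no value below has a replicate error, and every interval covers counting error only.

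A long terminal repeat (LTR) is the stretch found at both ends of a retrovirus-like element, around an internal part that once encoded its proteins. Recombination between the ends of an element often leaves a single LTR behind, so old families survive mostly as scattered solitary LTRs. The families with plain LTR numbers fall mainly into ERVL (class III endogenous retroviruses) and ERV1 (class I, related to gammaretroviruses). MamGyp names belong to the Gypsy group, whose repeats in mammals are old remnants that no longer move. Such copies are commonly transcribed as parts of longer host transcripts, in introns for example. The files do not give these classes, which were assigned from general knowledge of the names.

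The names were taken as those of families older than rodents, and 2 of them go against that. LTR10_RN and LTR72_RN carry the suffix RN, by which repeat libraries mark families described in the rat. These 2 names held 18 reads with ZBP1 in PS19, 119 with ZNA in PS19 and 49 with ZNA in WT, or 8.62% of all reads on the 108 names. They match the rule on names and were kept, and pooled results are given without them where that matters.

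The 3 libraries held 1425383 (PS19 ZBP1), 2918985 (PS19 ZNA) and 3234786 (WT ZNA) reads on repeat names. The 2 rRNA names LSU-rRNA_Hsa and SSU-rRNA_Hsa took 94.8%, 89.4% and 95.5% of them, so that 74474, 308613 and 145372 reads lay outside rRNA. The PS19 ZNA library stood apart by this lower rRNA share. It moves with every comparison per library total, and its part in those differences was not tested. Both reads per 1000000 of the library total (CPM) and reads per 1000000 outside rRNA are therefore used. Levels of single families and names are given mainly in CPM, and the order of the libraries can differ on the other scale. A single read is worth 0.702, 0.343 and 0.309 CPM in these libraries, and 13.4, 3.24 and 6.88 reads per 1000000 outside rRNA.

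Together, the 108 names were a small part of every library. They took 405 reads with ZBP1 in PS19, 1168 with ZNA in PS19 and 586 with ZNA in WT. These are 284.1, 400.1 and 181.2 CPM, with the PS19 ZNA library highest and the WT library lowest. Among reads outside rRNA the order differed. The share was 0.544% in the PS19 ZBP1 library (95% Wilson interval 0.493 to 0.599%), 0.378% in the PS19 ZNA library (0.357 to 0.401%) and 0.403% in the WT ZNA library (0.372 to 0.437%). On that scale the ZBP1 library was highest, and the intervals of the ZNA libraries of PS19 and WT overlapped.

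**Figure D1:**
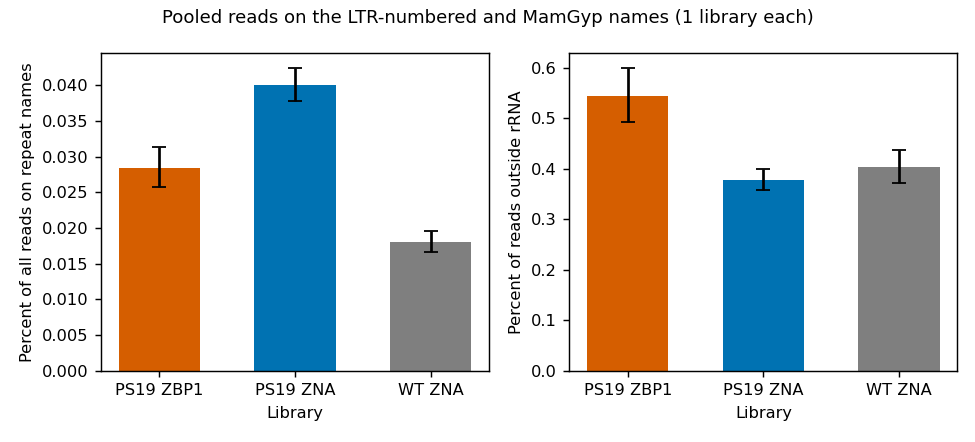
Pooled reads on the 108 names as a percent of all reads on repeat names (left) and of reads outside rRNA (right), with 1 bar per library and 95% Wilson intervals as error bars. On the left the PS19 ZNA library is highest. On the right the PS19 ZBP1 library is highest at 0.544%, and the ZNA libraries of PS19 and WT lie close together at 0.378% and 0.403%.

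Reads were spread over many names. The 5 names with the most reads in a library held 28.9% of its reads on the 108 names in PS19 ZBP1, 24.0% in PS19 ZNA and 27.6% in WT ZNA. Reads fell on 78, 85 and 76 of the names in these libraries, and 61 names had reads in all 3. Thinned to the 405 member reads of the shallowest library, the PS19 ZNA library would be expected to show 71.9 names and the WT ZNA library 70.7, against 78 in PS19 ZBP1. The ERVL group held 64.2% of the reads on 48 names, the Gypsy group 8.11% on 18 names and the ERV1 group 7.74% on 7 names. The other 35 names, which were given no class, held 19.96%. Over the 34 names with 20 or more reads, the rank correlation across names (Spearman's rho) was 0.638 between the ZNA libraries of PS19 and WT, 0.612 between ZBP1 and ZNA within PS19, and 0.386 between PS19 ZBP1 and WT ZNA. Names are not independent replicates, and counts this low weaken any rank order.

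**Figure D2:**
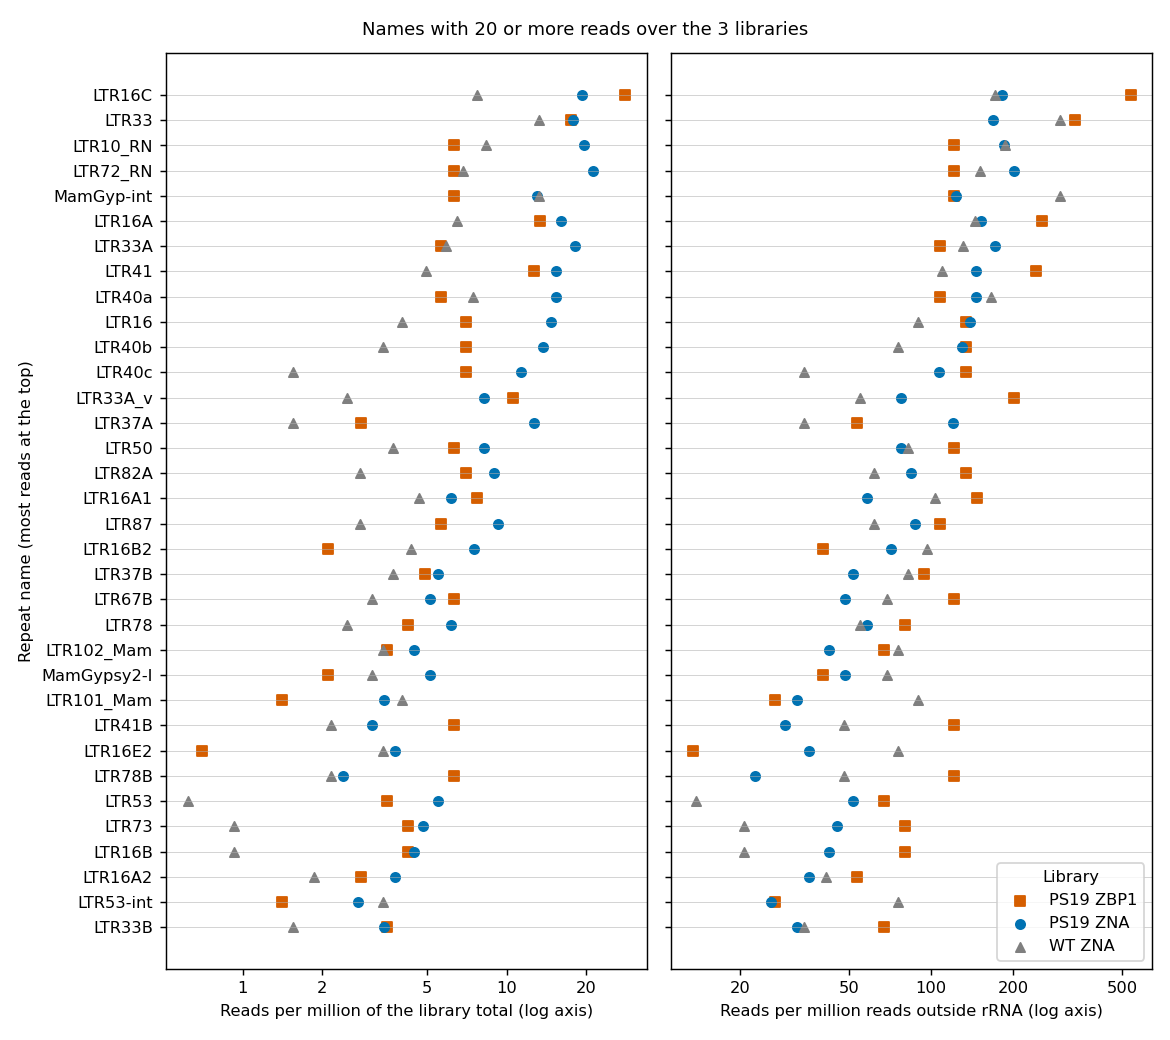
Levels of the 34 names with 20 or more reads in each library, as reads per 1000000 of the library total (left) and as reads per 1000000 outside rRNA (right), both on log axes, with 1 point per library. On the left the PS19 ZNA library is highest for 24 of the 34 names. On the right the PS19 ZBP1 library is highest for 21 of them.

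Names with the same number after LTR were pooled into numbered families, of which LTR16, an ERVL family, had the most reads. Levels are not compared between names, whose lengths and copy numbers are not in the files. The 13 LTR16 names had 102 reads with ZBP1 in PS19, 246 with ZNA in PS19 and 124 with ZNA in WT, or 71.6, 84.3 and 38.3 CPM. LTR16C led the family with 40, 56 and 25 reads, and LTR16A followed with 19, 47 and 21. LTR16C took the most reads of all 108 names in the ZBP1 library, at 28.1 CPM against 19.2 in the ZNA library of PS19 and 7.73 in WT. The name LTR16 itself had 10, 43 and 13 reads.

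LTR33, a further ERVL family, had 55, 146 and 77 reads in the same order of libraries. Its names did not share an order. The name LTR33 had 25, 52 and 43 reads and was near-equal in both PS19 libraries per library total, at 17.5 CPM with ZBP1 and 17.8 CPM with ZNA. LTR33A had 8, 53 and 19 reads, and its 18.2 CPM in the PS19 ZNA library stood above 5.61 CPM with ZBP1 and 5.87 CPM in WT. LTR33A_v, a variant of LTR33A, had 15, 24 and 8 reads and was highest with ZBP1, at 10.5 CPM against 8.22 with ZNA in PS19. The ratio of these levels was 1.28 with an interval that includes 1 (0.624 to 2.54).

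The ERVL family LTR40 had 31, 125 and 47 reads, and LTR41 had 28, 62 and 25 reads. LTR40a had 8, 45 and 24 reads, LTR40b 10, 40 and 11, and LTR40c 10, 33 and 5. All 3 were highest per library total in the PS19 ZNA library, where LTR40a had 15.4 CPM, LTR40b 13.7 and LTR40c 11.3. The name LTR41 had 18, 45 and 16 reads, or 12.6, 15.4 and 4.95 CPM. Of the ERVL families with fewer reads, LTR82 had 13, 38 and 13 reads, LTR53 had 9, 24 and 13, LTR50 had 9, 24 and 12, and LTR86 had 11, 18 and 7.

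Among the ERV1 names, the LTR37 family had 12, 65 and 17 reads and the LTR78 family 15, 25 and 15. LTR37A had 4, 37 and 5 reads, so that its level in the PS19 ZNA library (12.7 CPM) stood above those in the PS19 ZBP1 (2.81 CPM) and WT ZNA (1.55 CPM) libraries. LTR37B, of the same family, had 7, 16 and 12 reads and a narrower range, from 3.71 to 5.48 CPM. The internal name LTR37-int, at 1, 12 and 0 reads, is below the limit for a single name and was chosen with its values in view. Its count of 0 in WT allows up to 0.927 CPM.

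In the Gypsy group most reads fell on MamGyp-int, the internal part of MamGyp elements. It had 9, 38 and 43 reads, or 6.31 CPM with ZBP1 in PS19, 13.0 with ZNA in PS19 and 13.3 with ZNA in WT. MamGypsy2-I, also an internal name, had 3, 15 and 10 reads. The other 10 MamGyp names had 7 reads or fewer each over the 3 libraries. All MamGyp names but MamGyp-int had 8, 35 and 15 reads together. MamGyp-int was 1 of 3 names of the 34 that were highest per library total in WT, with LTR101_Mam and LTR53-int.

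The first comparison asked how the ZNA pull-downs of PS19 and WT differed in these names. Pooled, they were 2.21-fold higher in the PS19 library per library total (95% exact interval 1.998 to 2.443). All other names outside rRNA were 2.35-fold higher (2.34 to 2.37). Per reads outside rRNA, the PS19 to WT ratio of the 108 names was 0.939 (0.849 to 1.04). The pooled names were thus higher in the PS19 library per library total, as the rest of the repeats were, and a difference of the pooled names from all other names outside rRNA was not detectable at this depth.

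For counts of names, a name was compared when it had at least 20 reads and a mean of at least 1 CPM over both libraries, and log2 ratios were taken with a pseudocount of 1 CPM, which understates low names. Of the 108 names, 26 could be compared. A name can pass through the library where it is high, so the 26 do not stand for all 108. Per library total, 14 of the 26 were at least 2-fold higher in PS19 (53.8%), against 74.3% of the 713 names compared in the whole table, and 0 were at least 2-fold lower, against 0.421%. The median log2 ratio was 1.09, against 1.24 over all names compared. Per reads outside rRNA, 2 were at least 2-fold higher, LTR37A and LTR40c, and 2 at least 2-fold lower, MamGyp-int and LTR101_Mam. The shares over all 711 names were 3.52% and 2.39%. The median was then 0.03 against 0.07, with 13 of 26 names above 0. Log2 ratios of the 26 names had a standard deviation of 0.67 on that scale, where counting error alone gives about 0.42.

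LTR37A had the highest ratio of the names compared. Its 37 reads in PS19 and 5 in WT gave an 8.20-fold higher level per library total (3.22 to 26.7) and a 3.49-fold higher level per reads outside rRNA (1.37 to 11.4). LTR40c, with 33 and 5 reads, was 7.31-fold higher per library total (2.84 to 24.0) and 3.11-fold per reads outside rRNA (1.21 to 10.2). Both ratios were above 1 on either scale, but on 5 WT reads each. The 2 names were picked for their high ratios, and their intervals are not adjusted for that. LTR40b, LTR16, LTR87 and LTR33A_v came next, 3.32-fold to 4.03-fold higher per library total, and their ratios per reads outside rRNA, from 1.41 to 1.71, all had intervals that include 1.

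At the other end, MamGyp-int did not share the common shift. Its PS19 to WT ratio was 0.979 per library total (0.616 to 1.55) and 0.416 per reads outside rRNA (0.262 to 0.659). LTR101_Mam, on 10 and 13 reads, had ratios of 0.852 (0.335 to 2.10) and 0.362 (0.142 to 0.895). LTR33, on 52 and 43 reads, had 1.34 (0.878 to 2.06) and 0.570 (0.373 to 0.874). LTR16E2, LTR16A1 and LTR102_Mam had ratios between 0.471 and 0.565 per reads outside rRNA, all with intervals that include 1.

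Names of a family differed among themselves. LTR33A and LTR33 differed in their PS19 to WT ratios by 2.31-fold (1.14 to 4.75), and LTR37A and LTR37B by 5.55-fold (1.47 to 23.0). Both pairs were chosen after their values were seen. Reads can pass between related names in the counting, so a pooled family is firmer than its names.

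Of the 22 numbered families with 20 or more reads, 20 had a higher level in PS19 than in WT when scaled by library total, and 9 when scaled by reads outside rRNA. Of all single names compared in the whole table, 97.5% and 59.6% were higher in PS19 on these scales. The 20 families thus went with the shift of the whole table. On the latter scale the interval left out 1 for 3 of them, with no adjustment for the number of families. LTR37 was 1.80-fold higher (1.04 to 3.28), while MamGyp had a ratio of 0.593 (0.414 to 0.852) and LTR101 of 0.362 (0.142 to 0.895). Some families hold a single name, and the LTR101 value is that of LTR101_Mam given above. The families with the most reads lay near 1, with LTR16 at 0.935 (0.750 to 1.17), LTR33 at 0.893 (0.673 to 1.19) and LTR40 at 1.25 (0.889 to 1.79).

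**Figure D3:**
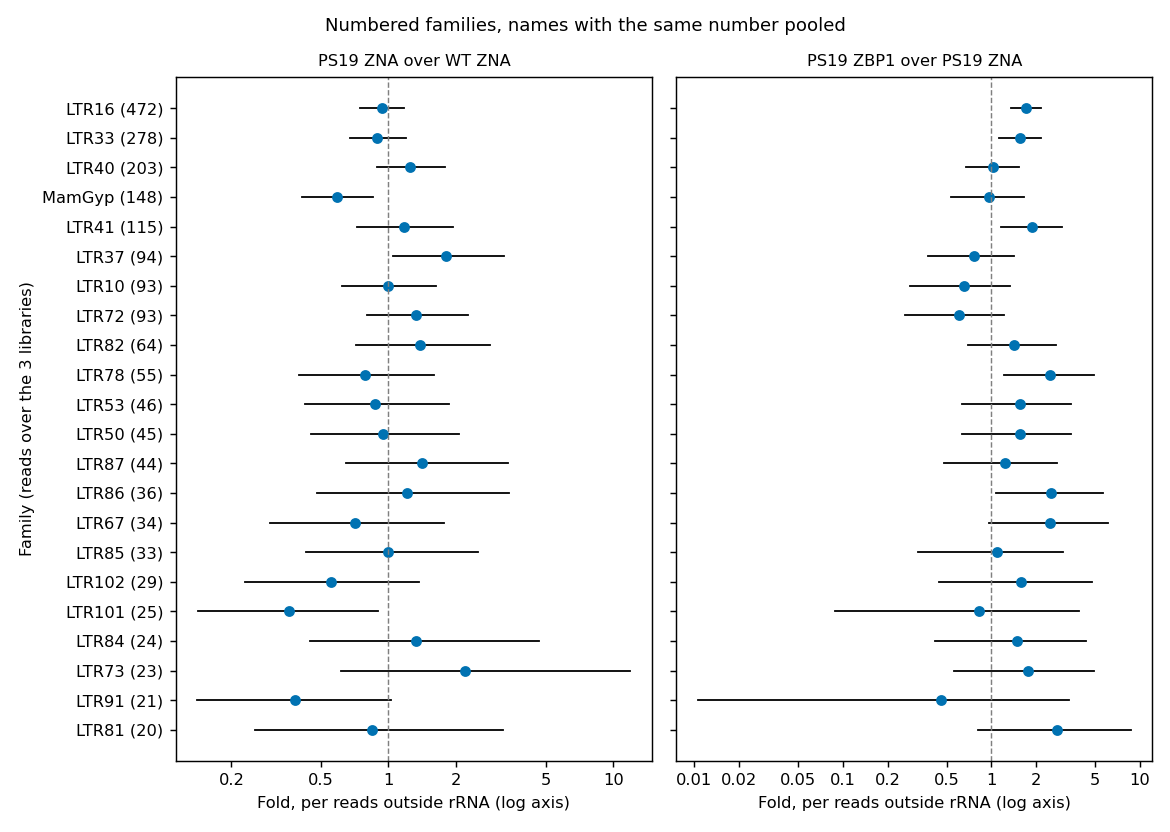
Fold of each numbered family with 20 or more reads, per reads outside rRNA, for PS19 over WT in the ZNA pull-down (left) and ZBP1 over ZNA in PS19 (right). Points are ratios on a log axis, lines are exact 95% intervals from counting error, and the number beside each family is its reads over the 3 libraries. On the left MamGyp (0.593) and LTR101 (0.362) lie below 1 and LTR37 (1.80) above it. On the right LTR16, LTR33, LTR41, LTR78 and LTR86 lie above 1 with intervals that leave it out.

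By class, the PS19 to WT ratio per reads outside rRNA was 0.987 for ERVL names (0.869 to 1.12), 1.21 for ERV1 names (0.827 to 1.80) and 0.640 for Gypsy names (0.458 to 0.899). Per library total all 3 were higher in PS19, by 2.32-fold, 2.84-fold and 1.51-fold. The ratio of the ERVL to the Gypsy group changed by 1.54-fold between the libraries (1.07 to 2.21), a value that does not depend on how the libraries are scaled. MamGyp-int, with most of the Gypsy reads, had a ratio of 0.416. The other MamGyp names, split off after the values were seen, had 1.10 (0.585 to 2.17). That interval also includes 0.640, a value to which the MamGyp-int reads themselves contribute. Relative to the other MamGyp names, MamGyp-int had a PS19 to WT value of 0.379 (0.166 to 0.846), a contrast likewise picked after the values were seen.

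Names of internal parts were then set against names of LTRs. The 5 internal names, MamGyp-int, MamGypsy2-I, LTR53-int, LTR37-int and LTR52-int, had 15, 73 and 65 reads, and the 103 LTR names had 390, 1095 and 521. Internal names made up 3.70% of the member reads with ZBP1 in PS19, 6.25% with ZNA in PS19 and 11.1% with ZNA in WT. MamGyp-int and MamGypsy2-I are also in the Gypsy group, so the contrasts by class and by part share their reads. Between the ZNA libraries, LTR names relative to internal names were 1.87-fold higher in PS19 (1.30 to 2.70). Without MamGyp-int, left out after the values were seen, it was 1.32 (0.730 to 2.34). That interval includes both 1 and 1.87, so how far the value depends on that name cannot be told. Of other internal names, picked after their values were seen, LTR53-int had 8 reads in PS19 and 11 in WT, where the LTR53 name had 16 and 2, and LTR37-int had 12 and 0.

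Within PS19, the pull-down of ZBP1 was then compared with that of ZNA, so that the PS19 ZNA library enters both comparisons. Pooled, the 108 names had a ZBP1 to ZNA ratio of 0.710 per library total (0.633 to 0.796), and all other names outside rRNA had 0.493 (0.489 to 0.497). Per reads outside rRNA, the names were 1.44-fold higher with ZBP1 (1.28 to 1.61). The 61 names with 1 to 19 reads went the same way when pooled, at 1.62-fold (1.26 to 2.07), as did the 34 names with 20 or more reads, at 1.39-fold (1.22 to 1.58). The direction of this comparison thus turns with the scale.

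Of the 24 names that could be compared, 0 were at least 2-fold higher with ZBP1 per library total, against 0.293% of all 682 names compared. There were 6 at least 2-fold lower, against 50.1%. Per reads outside rRNA, 4 were at least 2-fold higher (16.7%), against 8.09% of 680 names, and 0 were lower, against 7.94%. The 4 were LTR16C, LTR33A_v, LTR16A1 and LTR67B. The median log2 ratio of the 24 was -0.49 by library total and 0.34 by reads outside rRNA, against -1.002 and -0.05 over all names compared. On the latter scale 16 of the 24 lay above 0 (66.7%), against 47.2% of the 680 names compared. Their log2 ratios had a standard deviation of 0.68, where counting error alone gives about 0.49.

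LTR16C stood highest. Its 40 reads with ZBP1 and 56 with ZNA gave a 2.96-fold higher level per reads outside rRNA (1.92 to 4.52) and a ratio of 1.46 per library total (0.95 to 2.23). LTR33A_v was 2.59-fold higher per reads outside rRNA on 15 and 24 reads (1.26 to 5.14), LTR16A1 2.53-fold on 11 and 18 reads (1.08 to 5.66) and LTR33 1.99-fold on 25 and 52 reads (1.18 to 3.27). LTR67B and LTR37B, on 9 and 7 reads with ZBP1, were at 2.49 (0.959 to 6.06) and 1.81 (0.631 to 4.66). Below the limit for comparison, LTR78B had 9 and 7 reads and LTR41B 9 and 9, with ratios of 5.33 (1.77 to 16.8) and 4.14 (1.46 to 11.8). Both were picked after their values were seen.

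The lowest ratios were those of LTR37A, LTR72_RN, LTR16B2, LTR33A, LTR10_RN and LTR40a. LTR37A, on 4 and 37 reads, had a ratio of 0.221 per library total (0.0573 to 0.616) and 0.448 per reads outside rRNA (0.116 to 1.25). The ratios of the other 5 per reads outside rRNA ran from 0.565 to 0.737, and every one of the 6 intervals included 1 on that scale. Per library total all 6 intervals lay below 1.

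The RN names were set against the other names, a split chosen after the values were seen and given as a description. LTR72_RN had 6.31 CPM with ZBP1 and 21.2 CPM with ZNA, and LTR10_RN had 6.31 and 19.5 CPM. Together their ZBP1 to ZNA ratio was 0.627 per reads outside rRNA (0.359 to 1.03), against 1.53 for the other 106 names (1.36 to 1.72). Relative to those names they were 2.44-fold lower with ZBP1 (1.45 to 4.31). Between the ZNA libraries of PS19 and WT the corresponding change was 1.24 (0.869 to 1.80).

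Within families the names differed in this comparison too. LTR16C was 2.19-fold higher with ZBP1 relative to the other 12 LTR16 names (1.29 to 3.70), which had a ratio of 1.35 per reads outside rRNA (0.998 to 1.81). LTR33A relative to LTR33 was 3.19-fold lower (1.24 to 8.87). These contrasts were picked after the values were seen. The PS19 ZNA reads of LTR33A and LTR33 also enter their contrast between PS19 and WT, so the contrasts of this pair are not independent.

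Among the 22 numbered families, 16 were higher with ZBP1 per reads outside rRNA and 4 per library total. Of all single names compared, 47.2% and 9.09% were higher with ZBP1 on these scales. Per reads outside rRNA, 5 had an interval above 1 and 0 had one below 1. LTR16 was 1.72-fold higher (1.35 to 2.17), LTR33 1.56-fold (1.12 to 2.14), LTR41 1.87-fold (1.15 to 2.97), LTR78 2.49-fold (1.22 to 4.90) and LTR86 2.53-fold (1.08 to 5.66). LTR40, at 1.03 (0.670 to 1.53), and MamGyp, at 0.965 (0.534 to 1.65), lay near 1. Per library total, 5 families had an interval below 1 and 0 had one above it.

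By class, ERVL names were 1.60-fold higher with ZBP1 per reads outside rRNA (1.39 to 1.83). ERV1 names were at 1.16 (0.734 to 1.78), Gypsy names at 1.14 (0.696 to 1.81) and names without a class at 1.15 (0.865 to 1.52). The ratio of ERVL to ERV1 reads differed between the libraries by 1.38-fold (0.876 to 2.22) and that of ERVL to Gypsy reads by 1.40-fold (0.861 to 2.35). Both intervals include 1, so a difference between the classes was not detectable at these counts. Internal names, with 15 and 73 reads, had a ratio of 0.851 (0.454 to 1.498). LTR names relative to internal names differed by 1.73-fold (0.971 to 3.29).

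**Figure D4:**
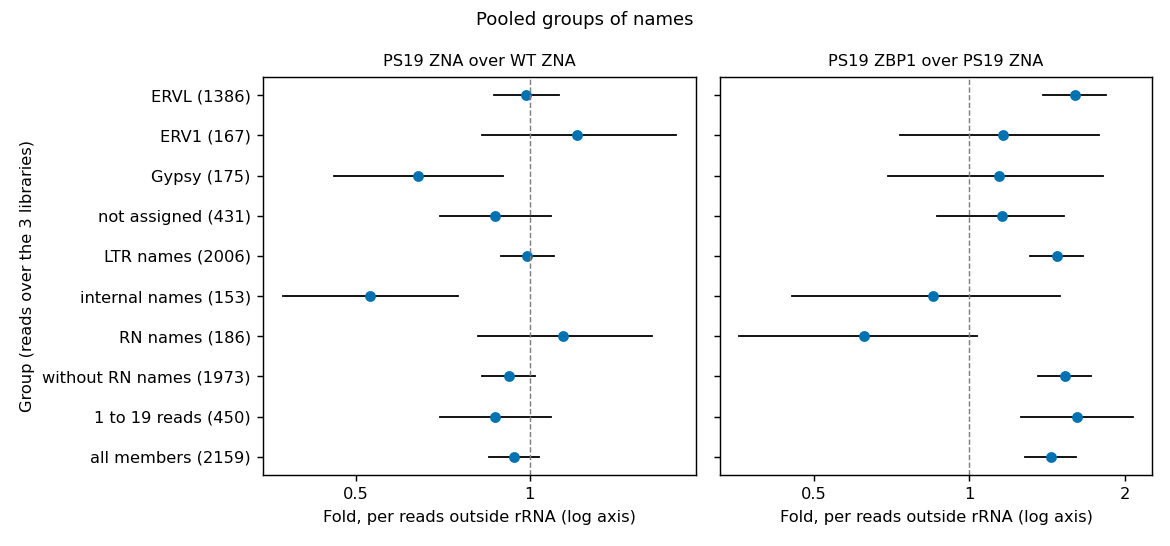
Fold of pooled groups of names, per reads outside rRNA, for PS19 over WT in the ZNA pull-down (left) and ZBP1 over ZNA in PS19 (right), with exact 95% intervals from counting error on a log axis and reads over the 3 libraries beside each group. On the left the Gypsy group (0.640) and the internal names (0.529), which share MamGyp-int and MamGypsy2-I, lie below 1. On the right the ERVL group lies at 1.60 and the RN names at 0.627.

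The names were last set against 3 other sets of repeats. These were the MLT1, MST and THE1 names (34 names of MaLR elements, old LTR elements that lack retroviral genes), the RLTR names (187 rodent LTR names) and the L2 and L3 names (11 names of old LINE elements). A ratio of the reads on 2 sets within a library does not depend on how the library is scaled. Per 1000 reads on MLT1, MST and THE1 names there were 245.3 reads on the 108 names with ZBP1 in PS19, 237.6 with ZNA in PS19 and 236.2 with ZNA in WT. This ratio changed by 1.03-fold between ZBP1 and ZNA in PS19 (0.908 to 1.17) and by 1.01-fold between PS19 and WT (0.900 to 1.13).

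Against the rodent RLTR names there were 125.5, 73.4 and 85.9 reads per 1000 in the same order. The ratio was 1.71-fold higher with ZBP1 than with ZNA (1.51 to 1.93), and its PS19 to WT value was 0.854 (0.769 to 0.948). Against the L2 and L3 names there were 296.7, 249.8 and 292.6 per 1000. The ratio was 1.19-fold higher with ZBP1 (1.04 to 1.35), and its PS19 to WT value was 0.854 (0.762 to 0.957). The log2 of the ZBP1 value was 0.25 (0.06 to 0.44). Without LTR16C it was 0.17, with an interval that includes 0 (-0.03 to 0.36), and without the RN names it was 0.34 (0.14 to 0.53). Between ZBP1 and ZNA the 108 names thus differed from the rodent LTR names beyond counting error. A difference from the MLT1, MST and THE1 names was not detectable, and the interval of 0.908 to 1.17 shows how large it could be. Without the RN names, the log2 of the ZBP1 to ZNA change was 0.86 against the RLTR names (0.68 to 1.04) and 0.14 against the MLT1, MST and THE1 names (-0.06 to 0.32).

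**Figure D5:**
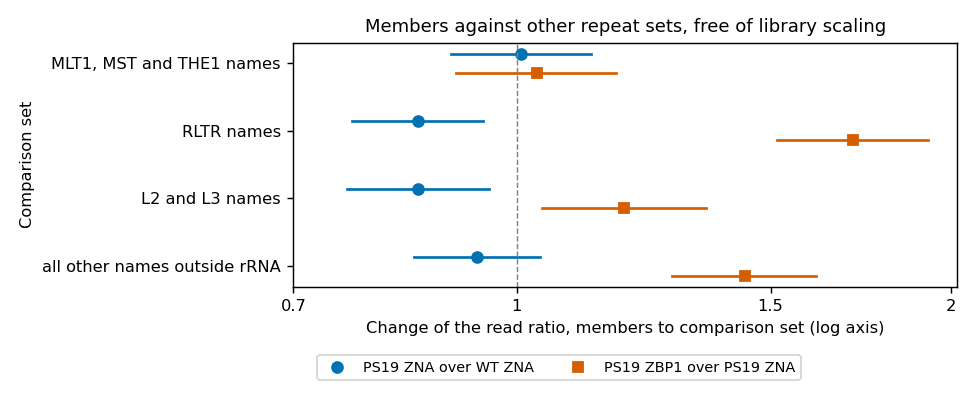
Change of the ratio of reads on the 108 names to reads on 4 comparison sets, between PS19 ZNA and WT ZNA (circles) and between PS19 ZBP1 and PS19 ZNA (squares), on a log axis with exact 95% intervals from counting error. Against the MLT1, MST and THE1 names both values lie at 1.01 and 1.03. Against the RLTR names the ZBP1 value is 1.71.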

How the data were processed

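Hippocampal RNA from 3 pull-downs was sequenced, 1 library per group, with groups taken from the sample titles. Each file deposited by the authors gives raw counts of reads for every repeat name, and its values are whole numbers that were not normalized. Per the submitters' processing notes, Trim Galore 0.6.5, STAR 2.5.3a, featureCounts 2.0.4 and the build mm39 were used. The repeat annotation, strand setting and handling of multi-mapping reads are not given in the sources used here. A name pools all copies in the genome, so no position is given, and multi-mapped reads can pass between related names.

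The 108 names, families by number, classes and comparison sets were chosen with earlier results of these data known. With 1 library per group no edgeR test could be fitted and no p-value is given. Ratios carry exact conditional (Clopper-Pearson) 95% intervals, and shares Wilson intervals. Reads carry no molecular identifiers, so intervals and the limit from a count of 0 (3 reads) cover counting error only. The rule for single names took, among those with 20 or more reads, the 12 with the most reads and, in each comparison, the 6 highest and 6 lowest ratios per reads outside rRNA. Intervals of names picked by their ratios are not adjusted for the picking or for the number of names. For counts past 2-fold per reads outside rRNA, libraries were scaled to equal reads outside rRNA at the mean library total, so that the pseudocount of 1 CPM keeps its weight. The spread from counting error was computed from the counts by the delta method. The 2-library comparison was also run on simulated counts, scaled by library total and with counting error only. That run cannot show how it does with variation between mice or libraries. Alternatives were other scalings, pseudocounts (0.1 and 5), filters, limits (1.5-fold and 4-fold) and subsets of names. TMM factors came from edgeR 4.0.16 and size factors from DESeq2 1.42.0, in R 4.3.3. Intervals came from scipy 1.17.1 and tables from pandas 2.3.3 in Python 3.11.15, and figures from matplotlib 3.10.9.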

Additional observations from a re-analysis of the deposited data

How the results depend on the processing

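The scaling of the libraries decided the pooled values. The log2 PS19 to WT ratio of the pooled names was 1.14 per library total and changed sign to -0.091 per reads outside rRNA, -0.083 with TMM factors and -0.13 with DESeq2 size factors. The ZBP1 to ZNA value of -0.49 became 0.52, 0.37 and 0.46. Scaling to reads outside rRNA removes, by its construction, the shift of the names outside rRNA as a whole. Why the TMM and DESeq2 factors gave similar values was not tested. The medians went from 1.09 to 0.030, 0.036 and -0.0059, and from -0.49 to 0.34, 0.21 and 0.29. In the PS19 against WT comparison, 14 names at least 2-fold higher and 0 lower became 2 and 2 under each of the 3 scalings. Between ZBP1 and ZNA, 0 higher and 6 lower became 4 and 0 per reads outside rRNA, 3 and 1 with TMM factors, and 4 and 1 with DESeq2 size factors.

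For PS19 against WT, pseudocounts of 0.1 and 5 gave medians of 1.25 and 0.77, and a pseudocount of 5 left 7 names 2-fold higher. With no filter, 33 of 93 names were higher and the median was 0.63. A mean of at least 10 CPM left 9 names, 6 of them higher, and 2 names were 4-fold higher. For ZBP1 against ZNA, a pseudocount of 5 gave a median of -0.29 and a mean of at least 10 CPM gave -0.92. With no filter, 5 of 92 names were higher and 16 lower. At 1.5-fold 11 were lower and at 4-fold 0. The pseudocounts and fold limits were applied to the same names. A larger pseudocount by its construction draws the log2 ratios of low names towards no change, and a fold limit changes only the count. For the filters, the cause beyond the fewer or more names compared was not tested.

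Leaving out the MamGyp names, the name with the most reads, names under 20 reads, all but the ERVL names or the RN names (chosen after the names and their values were seen) kept every pooled value and every ratio to a comparison set within its counting interval. Some intervals came to include no change. For ZBP1 against ZNA relative to L2 and L3 names these were the log2 values without LTR16C, the name with the most reads (0.17, -0.03 to 0.36), and of names with 20 or more reads (0.20, -0.01 to 0.41). For PS19 against WT they were those of the ERVL names relative to RLTR names (-0.16, -0.34 to 0.04) and to L2 and L3 names (-0.16, -0.36 to 0.05), and without MamGyp relative to L2 and L3 names (-0.17, upper bound 0.00036). Leaving out a library was not possible. No paired analysis was possible because each group has 1 library. With 0.702 CPM to a read, the library of the ZBP1 pull-down is the shallowest.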
